A study of Mus musculus with 12 samples.

Results

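Newly made RNA of MPI-2 cells was compared with that of bone marrow-derived macrophages (BMM) while both were responding to lipopolysaccharide (LPS). The comparison rests on the 6 arrays whose titles name an LPS-stimulated sample, 3 of MPI-2 and 3 of BMM, out of 12 arrays in the series. The other 6 are mock samples of the same cells, 3 of each, and were used to ask whether a difference was also there without LPS. They also entered the fit, so their spread helps to set the standard error and p-value of each LPS difference. Each array measured 19937 named genes.

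MPI-2 is a macrophage line derived from C57BL/6 fetal liver and kept in RPMI with 10% fetal calf serum and granulocyte-macrophage colony-stimulating factor (GM-CSF). BMM were differentiated ex vivo from C57BL/6 marrow in DMEM with the same share of serum and macrophage colony-stimulating factor (M-CSF). Both were given R-LPS, which the labels give as 0.1 mg/ml. Labelling with 4-thiouridine, a uridine analogue that is built into RNA as it is transcribed, began 30 min later and lasted 60 min, at a concentration the labels give as 250 mM. Whether these 2 units are as intended was not tested. Labelled RNA was isolated through biotin, and 200 ng went into the amplification for Affymetrix whole-transcript arrays. MPI-2 is 1 line, so its 3 samples show the spread of that line and not of independently derived lines. The sample titles say biological replicate, but no label ties a replicate to its own animal or culture, so a p-value measures only how far these samples spread, which may be technical. Cell source, growth factor, medium and any batch of arrays all go with the groups and cannot be told apart.

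LPS, a component of the outer membrane of Gram-negative bacteria, is delivered by CD14 to the receptor pair TLR4 and MD-2. From there the adaptor MyD88 leads to NF-kB and the early inflammatory cytokines, and the adaptor TRIF leads to the factor IRF3 and the gene of interferon beta. Secreted interferon beta acts back on its own receptor, whose signal reaches DNA motifs called ISRE in the antiviral genes. GM-CSF is the growth factor on which alveolar macrophages depend, in part through the nuclear receptor PPAR gamma, whereas M-CSF maintains most other tissue macrophages.

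Values are deposited log2 values, and a difference is the MPI-2 mean minus the BMM mean after LPS, in log2 units, with its standard error (SE). A gene passed where limma's Benjamini-Hochberg adjusted p over all genes was under 0.05, and "higher" or "lower" without more means higher or lower in MPI-2 with that threshold passed. Levels under 3.36, the 95th percentile of 1027 olfactory receptor genes, are called background here. A gene at background in 1 group has a difference that understates the change, and its fold, where given, is "at least", counted from background. For some such genes below only the difference is given. Of these, MPI-2 was at background for Mx2, Cmpk2, Ifit3b, Psmb8, Cxcl11, Ccr3, Ly86, Stat4, Vcam1, Fyb, Pf4, Cd209a and Xcr1. BMM were at background for Slamf6, Ctsk, Chil3, Kynu, Igf2bp3, Mmp8, Clec9a, Hgf, Il1bos and Bmpr1a. Of all genes, 8800 (44.1%) passed, 4488 (22.5%) higher and 4312 (21.6%) lower. Of these, 2431 were higher and 1057 lower by at least 2-fold, and 47 were higher and 122 lower by at least 16-fold. At background in both groups were 35 of the higher and 960 of the lower genes. Counts of list members below are to be read beside the 22.5% and 21.6% of all genes. The median of all genes was -0.14, which became -0.01 after a further cyclic loess scaling and -0.02 after quantile normalization, so small differences depend on the scaling. Between MPI-2 LPS arrays r across genes was 0.994 to 0.996, and between BMM LPS arrays it was 0.975 to 0.988, with replicate 3 least like the others. All 11 tested macrophage markers lay above background in both groups, as did 11069 of the 19937 genes. Of the 11 markers, 3 were higher and 4 lower after LPS, and 1 was higher and 9 lower in mock.

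**Figure D1:**
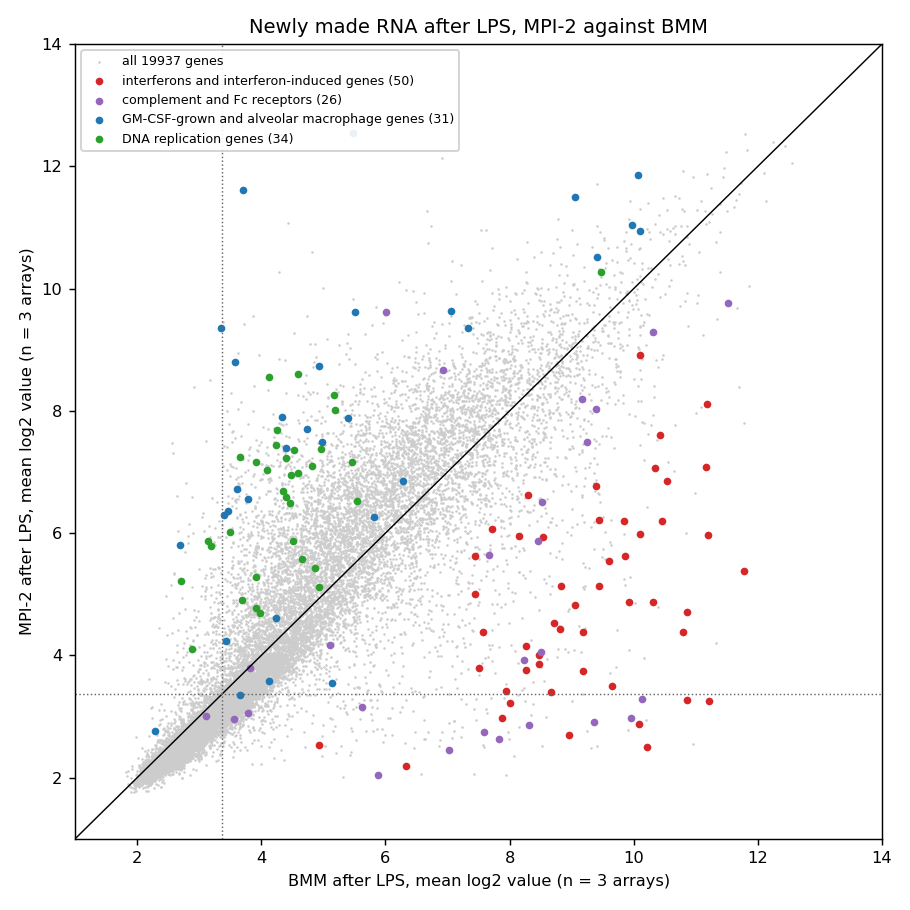
Mean log2 value of every gene after LPS, in BMM on the horizontal axis and in MPI-2 on the vertical axis, each over 3 arrays; the line marks equal values, the dotted lines mark background, and 4 gene lists are coloured. All 50 interferon-list genes lie below the line, and 33 of 34 DNA replication genes lie above it with the threshold passed.

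The list of interferons and interferon-induced genes differed most uniformly. Of its 62 entries 50 were tested, and of these 50 were lower in MPI-2 and 0 were higher, with a median difference of -4.24. Its members were chosen with earlier results of these data known. The uniformity also depends on membership, as the list leaves out Cxcl10, an interferon-induced chemokine with a difference of -0.49. On the single arrays the median level of the list was 4.95, 4.86 and 4.80 in MPI-2 and 9.25, 9.31 and 9.44 in BMM. The direction was the same in every member and every alternative scaling, and with genes limited to those above background 49 members were tested and 49 were lower. The smallest difference in the list was that of Cd274, the checkpoint ligand PD-L1, -1.19 ± 0.19, which is named for that reason.

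Ifnb1, the gene of interferon beta, had values of 2.79, 2.74 and 2.58 in MPI-2 and 8.40, 8.80 and 9.69 in BMM. All 3 MPI-2 arrays were at background and all 3 BMM arrays were far above it. The difference was -6.26 ± 0.24 (adjusted p = 1.28e-11), at least 48.4-fold. Mx1, of the dynamin-like GTPases, had values of 2.91, 2.86 and 2.85 in MPI-2 and 9.88, 9.93 and 10.42 in BMM. MPI-2 was again at background, and the difference was -7.21 ± 0.16 (adjusted p = 5.68e-14). Ifit3, which works with the RNA-binding protein Ifit1, had values of 3.41, 3.34 and 3.01 in MPI-2 and 11.20, 11.18 and 11.29 in BMM. Its difference of -7.97 ± 0.15 (adjusted p = 6.90e-15) was at least 232-fold.

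Ifit1 itself was not at background in MPI-2. Its values were 6.07, 5.84 and 5.97 in MPI-2 and 11.13, 11.13 and 11.31 in BMM, which gave -5.23 ± 0.12 (adjusted p = 7.52e-14). The further members with the smallest p were Mx2 (-7.71 ± 0.14), the nucleotide kinase Cmpk2 (-7.58 ± 0.17) and the guanylate-binding GTPase Gbp5 (-6.14 ± 0.14). Ifit2 differed by -6.42 ± 0.17, and Irf7, the factor that amplifies the interferon response, by -5.44 ± 0.20. Among genes outside the list that were named for their size, the membrane protein Ifitm3, which restricts virus entry, had a difference of -8.40 ± 0.20. It was at background in MPI-2, and counted from background it was at least 193-fold lower. Ifi213 (-7.26 ± 0.22) and Ifi209 (-6.90 ± 0.26), of the Ifi200 family of DNA-binding proteins, were lower too, also with MPI-2 at background. Members of the Ifit, Mx and Ifi200 families have close copies that can share probes, so how a value divides among copies is uncertain.

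The promoters of 4 genes are shown because they set an interferon gene at background in MPI-2 (Ifnb1) and an interferon-induced gene (Ifit3) beside 2 LPS-induced genes whose levels were close between the cells (Cxcl10 and Il6). Each is the 250 bases before the gene's start in RefSeq, GRCm38.p6, written 5′ to 3′ on the gene's strand. Capitals mark matches, searched on both strands, to an ISRE-like motif (GAAA, any 2 bases, GAAA), a kappaB-like motif (GGGA, any 2 bases, TTCC) or an AP-1-like motif (TGAGTCA). Each motif was counted on its own, whether or not it overlapped another.
Ifnb1: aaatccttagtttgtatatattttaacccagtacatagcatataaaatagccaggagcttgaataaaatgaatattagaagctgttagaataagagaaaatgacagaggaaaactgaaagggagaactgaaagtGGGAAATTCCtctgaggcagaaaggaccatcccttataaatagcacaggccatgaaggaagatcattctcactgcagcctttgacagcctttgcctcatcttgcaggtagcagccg
Ifit3: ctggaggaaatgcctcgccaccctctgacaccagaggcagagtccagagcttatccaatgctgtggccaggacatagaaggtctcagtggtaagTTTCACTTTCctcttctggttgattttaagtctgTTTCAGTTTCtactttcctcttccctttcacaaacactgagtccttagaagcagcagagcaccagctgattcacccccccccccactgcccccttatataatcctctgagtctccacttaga
Cxcl10: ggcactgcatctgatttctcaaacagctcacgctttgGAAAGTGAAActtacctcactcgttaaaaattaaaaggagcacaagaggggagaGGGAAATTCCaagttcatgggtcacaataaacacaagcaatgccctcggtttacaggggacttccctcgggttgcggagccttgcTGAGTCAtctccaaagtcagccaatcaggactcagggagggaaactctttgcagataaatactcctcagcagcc
Il6: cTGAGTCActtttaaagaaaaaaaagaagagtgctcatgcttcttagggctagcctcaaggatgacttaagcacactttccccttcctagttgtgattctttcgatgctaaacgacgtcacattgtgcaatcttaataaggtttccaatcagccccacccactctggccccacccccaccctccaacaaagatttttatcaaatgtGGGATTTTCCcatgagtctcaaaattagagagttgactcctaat
The windows are chr4:88522795-88523044 on the minus strand, chr19:34583279-34583528 on the plus strand, chr5:92348890-92349139 on the minus strand and chr5:30012864-30013113 on the plus strand. Counted back from the start, Ifnb1 has a kappaB-like match at -116 to -107. Ifit3 has ISRE-like matches at -156 to -147 and -122 to -113. Cxcl10 has an ISRE-like match at -213 to -204, a kappaB-like match at -159 to -150 and an AP-1-like match at -74 to -68. Il6 has a kappaB-like match at -44 to -35 and an AP-1-like match at -249 to -243.

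Over all genes, the same search described the ends of the ranking. Of the 50 genes lowest in MPI-2 relative to BMM, 36 had a promoter in the table (42 promoters). Of those promoters 11 (26.2%) held the ISRE-like letters, 6 (14.3%) the kappaB-like and 5 (11.9%) the AP-1-like. The ranking uses the same differences as the interferon list, and members of that list were not set apart, so these shares are not a separate observation. Of the 50 genes most higher, 35 had one (40 promoters), with 0%, 2.5% and 5%. All 32851 promoters of the table, which have the same length, held them in 3.44%, 1.47% and 5.2%. Among the interferon list 37% of 54 promoters held the ISRE-like letters. A match is a description of these letters and not of binding. With the 100 genes at each end the ISRE-like share was 24.7% of promoters for the lower and 3.41% for the higher genes.

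Receptors of interferon were lower but well above background. Ifnar1 differed by -1.35 ± 0.11 and Ifnar2, the other chain of the receptor for interferon alpha and beta, by -0.95 ± 0.11. Of 19 genes of interferon receptors and JAK-STAT signalling, 10 were lower and 2 higher, with a median of -0.42. The higher count was 0 after cyclic loess and quantile normalization and 1 under 10 of the other 12 alternatives, among them each LPS array left out except BMM LPS replicate 2, and the median was -0.86 after cyclic loess. Stat4 (-2.62 ± 0.21), a transducer of interleukin-12 signals, and Stat5a (-1.43 ± 0.14), a transducer of GM-CSF signals, were among the lower genes. The phosphatase Ptpn6, a negative regulator, was higher (0.59 ± 0.13, adjusted p = 0.0019), a call lost after cyclic loess (0.14, adjusted p = 0.52) and quantile normalization (0.31, adjusted p = 0.0937). Il10ra, a chain of the interleukin-10 receptor, was the other higher gene (0.32 ± 0.12, adjusted p = 0.0389), and its difference was -0.10 after cyclic loess.

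Class I antigen presentation, which interferon is known to raise, had 13 of 16 genes lower and 1 higher, with a median of -1.34. Tap1, a subunit of the peptide transporter, had values of 5.19, 5.16 and 4.92 in MPI-2 and 9.38, 9.36 and 8.84 in BMM and differed by -4.10 ± 0.18 (adjusted p = 4.05e-11). Its partner Tap2 differed by -2.55 ± 0.23, and the immunoproteasome subunits Psmb10 and Psmb8 by -2.79 ± 0.19 and -2.38 ± 0.17. B2m, the light chain of class I molecules, differed less (-1.12 ± 0.12). Mr1, which presents vitamin B metabolites, went the other way (0.60 ± 0.20, adjusted p = 0.0238), a call lost after cyclic loess (0.29) and without BMM LPS replicate 3 (0.38), MPI-2 LPS replicate 2 (0.61) or MPI-2 LPS replicate 3 (0.53).

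Co-stimulatory and checkpoint molecules were lower in 12 of 21 cases and higher in 5 (median -0.53). Cd40, through which T cells activate macrophages, had values of 4.23, 4.16 and 3.88 in MPI-2 and 9.99, 10.10 and 9.71 in BMM. The MPI-2 arrays lay just above background and the BMM arrays far above it, a difference of -5.84 ± 0.16 (adjusted p = 2.89e-13). Slamf7 (-6.21 ± 0.23) and Slamf9 (-3.07 ± 0.15), receptors of the SLAM family, and Cd86 (-3.50 ± 0.19), a ligand of CD28, were lower too. The inhibitory receptor Cd300lf (3.97 ± 0.18) and Slamf6 (1.06 ± 0.16) were higher. Slamf6 was at background in BMM and had a mean of only 3.80 in MPI-2.

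**Figure D2:**
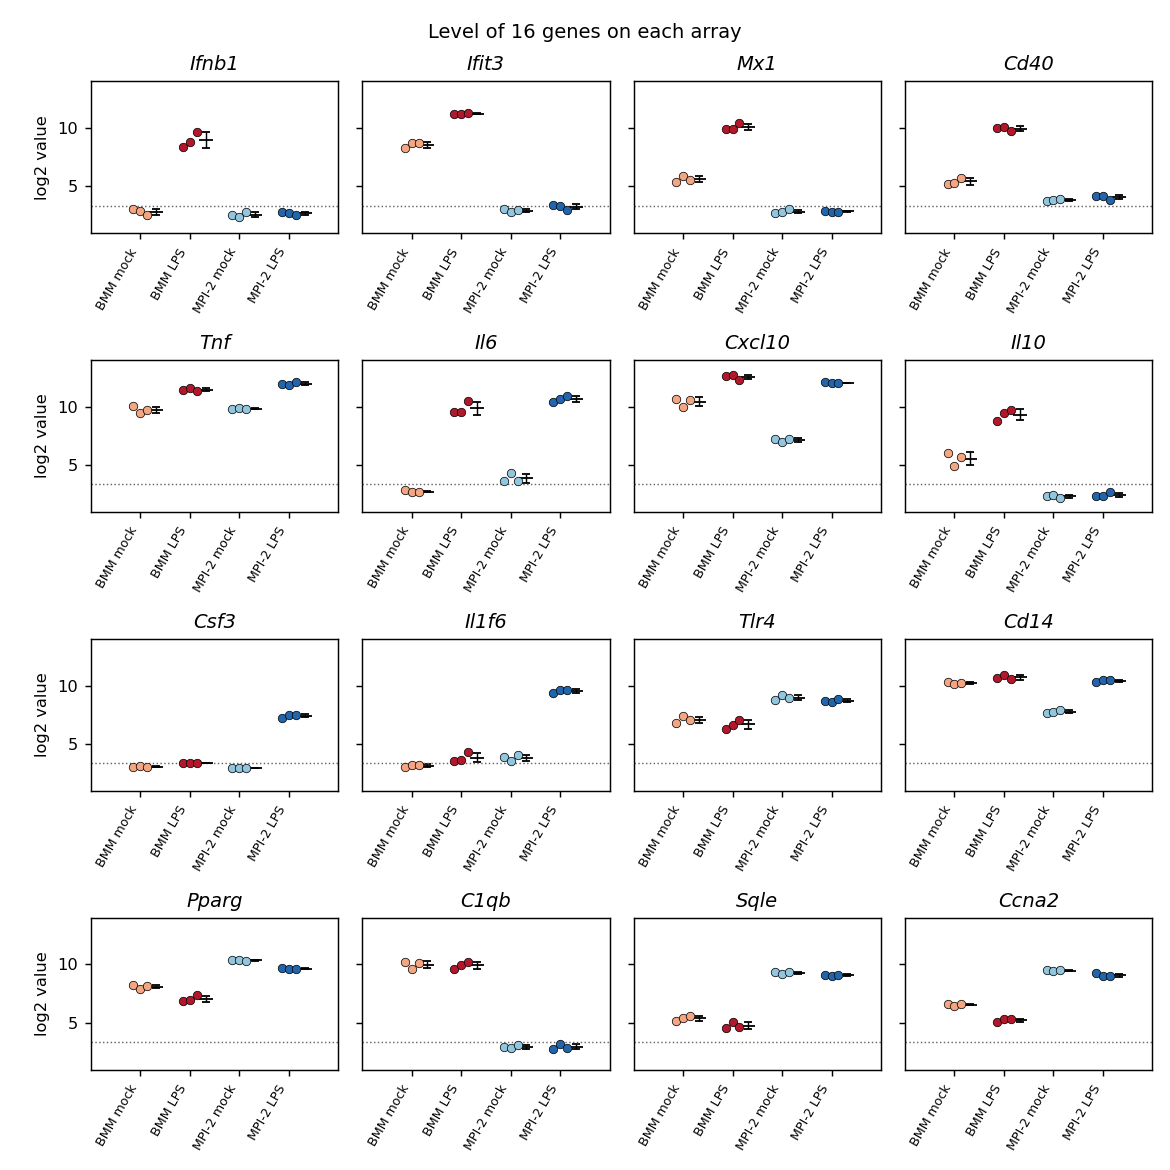
Log2 value of 16 genes on each of the 12 arrays (dots, 3 per group), with the group mean and SD beside them and background dotted. After LPS, Ifnb1, Mx1, Il10 and C1qb are at background in MPI-2, Csf3 and Il1f6 are high in MPI-2 alone, and Tnf, Il6, Cxcl10 and Cd14 reach similar levels in both.

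Inflammatory cytokines had no common direction, with 15 of 34 higher, 13 lower and a median of 0.23. Several of the best known LPS-induced cytokines were made at close levels in both cells. Tnf had values of 11.95, 11.90 and 12.08 in MPI-2 and 11.46, 11.60 and 11.33 in BMM, so that MPI-2 lay above BMM by 0.52 ± 0.14 (adjusted p = 0.00827), although that call was lost after cyclic loess (0.25, adjusted p = 0.344) and quantile normalization (0.36, adjusted p = 0.083). Il6 had values of 10.44, 10.64 and 10.92 in MPI-2 and 9.55, 9.55 and 10.51 in BMM. Its groups overlapped at BMM replicate 3, and the difference of 0.80 ± 0.24 (adjusted p = 0.014) did not pass after cyclic loess (0.32) or without BMM LPS replicate 1 (0.64), BMM LPS replicate 2 (0.64) or MPI-2 LPS replicate 3 (0.67). Il1a (0.70 ± 0.29, adjusted p = 0.0573) and Il1b (0.39 ± 0.17, adjusted p = 0.0774) missed the threshold. Both passed without BMM LPS replicate 3, at 0.89 and 0.48, and with array weighting, and Il1a also with the LPS arrays alone, among genes above background and in a trend and robust fit. The highest value in the table is 12.82, and whether the signals of Tnf, Il1a and Il1b, which come near it, were limited by it was not tested. Il12b, the p40 subunit shared by interleukins 12 and 23, was higher by 0.79 ± 0.13, and Il1rn, the antagonist of the interleukin-1 receptor, by 1.07 ± 0.13.

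A second set of cytokines was far higher in MPI-2. Il1f6, which encodes interleukin-36 alpha, had values of 9.38, 9.64 and 9.63 in MPI-2 and 3.59, 3.65 and 4.34 in BMM. The MPI-2 arrays were tight, and the BMM arrays were near background, with a difference of 5.69 ± 0.18 (adjusted p = 1.73e-12). Csf3, the gene of the neutrophil growth factor G-CSF, had values of 7.27, 7.50 and 7.52 in MPI-2 and 3.39, 3.41 and 3.39 in BMM. BMM stayed at about the background level, and the difference was 4.04 ± 0.11 (adjusted p = 3.11e-13). Il1f9, interleukin-36 gamma, was higher by 5.77 ± 0.25, and Lif, a cytokine of the interleukin-6 family, by 4.36 ± 0.17. Oncostatin M (Osm), of the same family, was higher by 2.39 ± 0.23. Inhba, whose product forms activin A, was higher by 5.22 ± 0.22, and Fst, which encodes the activin-binding protein follistatin, by 6.66 ± 0.17. Il1bos, an antisense transcript at the Il1b locus, was higher by 5.32 ± 0.17. Because it overlaps Il1b, its signal cannot be assigned with certainty, while Il1b itself differed little.

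The third set was far lower. Il10, the main anti-inflammatory cytokine of macrophages, had values of 2.42, 2.37 and 2.68 in MPI-2 and 8.80, 9.46 and 9.68 in BMM. All MPI-2 arrays were at background, and the difference of -6.82 ± 0.25 (adjusted p = 5.18e-12) was at least 61.7-fold. Tnfsf4, the ligand of OX40, was also at background in MPI-2 (-5.22 ± 0.16, at least 24.3-fold). Il15, a cytokine for natural killer cells that interferon is known to raise, differed by -4.95 ± 0.15.

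Chemokines were lower in 17 of 29 cases and higher in 6, with a median of -0.51. Cxcl10, an attractant of T cells induced both by interferon and by NF-kB, had values of 12.07, 12.05 and 12.05 in MPI-2 and 12.62, 12.70 and 12.31 in BMM. These lie just under the top of the range in both cells, and the difference was -0.49 ± 0.17 (adjusted p = 0.031). The call was lost without any 1 of BMM LPS replicates 1 (-0.45) and 2 (-0.41) and MPI-2 LPS replicates 1 (-0.49), 2 (-0.49) and 3 (-0.48). Its neighbours in the family, which bind the same receptor CXCR3, differed strongly. Cxcl11 had values of 3.22, 3.30 and 3.26 in MPI-2 and 8.72, 9.03 and 9.25 in BMM and differed by -5.74 ± 0.14 (adjusted p = 9.15e-14), and Cxcl9 differed by -4.32 ± 0.14. Ccl7, a monocyte attractant, differed by -7.12 ± 0.20, and the membrane-bound Cxcl16 by -5.91 ± 0.16. On the other side, Ccl17, an attractant of CCR4-bearing T cells, had values of 10.32, 10.23 and 10.27 in MPI-2 and 4.28, 4.18 and 4.40 in BMM, and was higher by 5.99 ± 0.15 (adjusted p = 1.07e-13). Ccl6 was higher by 3.42 ± 0.19.

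Among 19 chemokine and chemoattractant receptors, 8 were lower and 4 higher (median -0.29, or -0.43 without MPI-2 LPS replicate 1 and -0.68 among genes above background). As a share, the higher count lay near the 22.5% of all genes. Ccr1, a receptor of several inflammatory CC chemokines, was higher by 4.56 ± 0.20 and the nucleotide receptor P2ry13 by 2.0 ± 0.15. Ccr3, best known from eosinophils, was lower (-3.92 ± 0.21), as was P2ry6, a receptor for uridine diphosphate (-2.31 ± 0.15).

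The receptors that sense LPS did not move together. Tlr4 itself had values of 8.67, 8.59 and 8.84 in MPI-2 and 6.32, 6.66 and 7.07 in BMM. Every MPI-2 array lay above every BMM array, by 2.02 ± 0.19 (adjusted p = 2.68e-07). Tlr2, the receptor for bacterial lipoproteins, was higher by 1.02 ± 0.13. Cd14, which hands LPS to TLR4, had values of 10.31, 10.45 and 10.44 in MPI-2 and 10.69, 10.95 and 10.54 in BMM, and its difference of -0.32 ± 0.13 missed the threshold (adjusted p = 0.0559), though it passed after cyclic loess (-0.67), quantile normalization (-0.39) and array weighting (-0.36) and without BMM LPS replicate 3 (-0.41). In all, 11 of 15 LPS and Toll-like receptor genes were lower, 2 were higher, and the median was -1.98. Tlr1, which pairs with TLR2, was at background in MPI-2 (-5.36 ± 0.12, at least 24.8-fold), and Tlr6, the other partner of TLR2, differed by -1.98 ± 0.11. Cd180, a TLR4-like receptor, differed by -5.31 ± 0.16 and its partner Ly86, also known as MD-1, by -4.17 ± 0.25.

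Signalling genes downstream were nearer to each other. Of 23 genes of Toll-like receptor signalling, 12 were lower and 7 higher, with a median of -0.32. After cyclic loess 13 were lower and 1 higher, and without MPI-2 LPS replicate 3 the lower count fell to 7. Ikbke, a kinase upstream of IRF3, was lower (-1.98 ± 0.13), with the adaptor Tab2 (-1.49 ± 0.12) and the transcription factor Irf5 (-1.53 ± 0.21). Tollip (1.58 ± 0.17) and Irak3 (0.77 ± 0.15), both of which restrain the pathway, were higher, Irak3 not after cyclic loess (0.34).

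Of 34 NF-kB subunits and feedback regulators, 18 were lower and 11 higher (median -0.43), and the higher count was 5 after cyclic loess. Zfp36l1, a factor that destabilises AU-rich mRNA, was at background in MPI-2 (-4.52 ± 0.13), and its relative Zfp36, also called tristetraprolin, was lower (-2.39 ± 0.16). Another relative, Zfp36l2, was higher (2.18 ± 0.25). The MAP kinase phosphatases split as well, with Dusp2 (-3.30 ± 0.21) and Dusp4 (-3.69 ± 0.27) lower and Dusp16 (1.54 ± 0.13) higher.

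**Figure D3:**
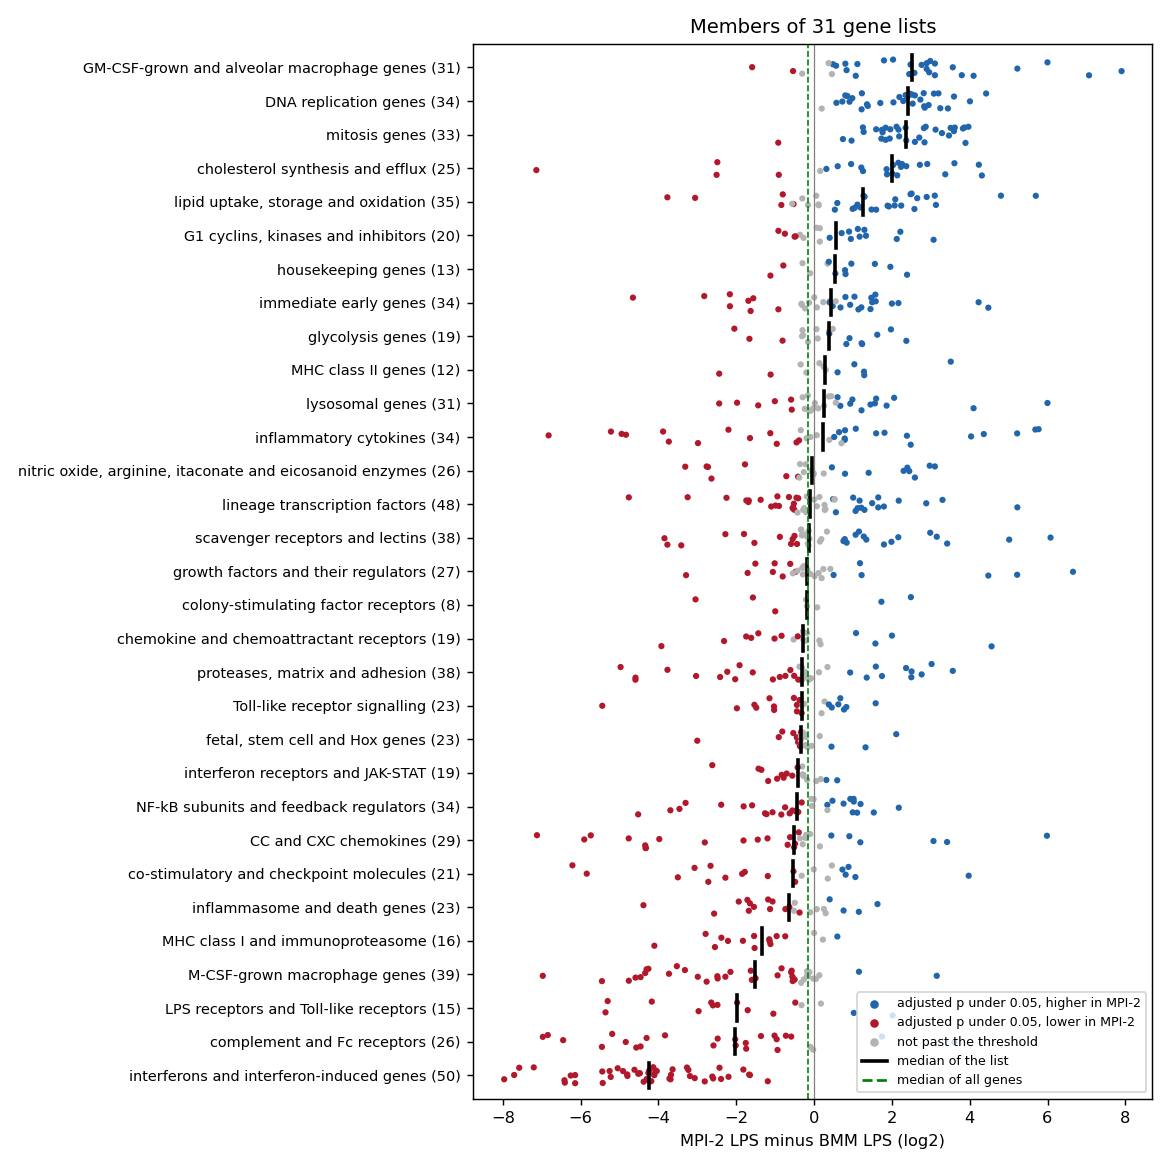
Difference of each member of 31 gene lists (dots), in log2 units, MPI-2 minus BMM after LPS; blue and red mark members past the threshold, black bars the list medians, the dashed line the median of all genes, and the number of tested members follows each name. The interferon list has the lowest median (-4.24) and the list of GM-CSF-grown and alveolar macrophages the highest (2.51).

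Genes known from GM-CSF-grown and alveolar macrophages were higher in 26 of 31 cases and lower in 2, with a median of 2.51. Car4, a membrane-bound carbonic anhydrase found on alveolar macrophages, had values of 11.67, 11.61 and 11.54 in MPI-2 and 3.71, 3.71 and 3.69 in BMM. It showed the largest increase of all genes named by the rule, 7.90 ± 0.13 (adjusted p = 6.90e-15), a 240-fold difference. Pparg, the lipid-sensing nuclear receptor needed for alveolar macrophages, had values of 9.70, 9.60 and 9.61 in MPI-2 and 6.84, 6.94 and 7.38 in BMM. Its difference was 2.58 ± 0.14 (adjusted p = 6.24e-10), and both cells expressed it above background. Plet1 was higher by 7.07 ± 0.39, the transcription factor Bhlhe41 by 5.23 ± 0.18, the zinc transporter Slc39a2 by 3.80 ± 0.15 and the scavenger receptor Marco by 2.98 ± 0.16. The protease Ctsk, also high in osteoclasts, was higher by 6.0 ± 0.16. Tmem26 was the clearest exception (-1.59 ± 0.13).

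Genes known from M-CSF-grown macrophages were lower in 28 of 39 cases and higher in 2, with a median of -1.51. C1qb, a chain of the complement component C1q, had values of 2.79, 3.24 and 2.91 in MPI-2 and 9.64, 9.99 and 10.23 in BMM. MPI-2 was at background on every array, at least 96-fold below BMM (-6.97 ± 0.18, adjusted p = 2.04e-13). Maf, a transcription factor that slows macrophage division, had values of 3.57, 3.54 and 3.19 in MPI-2 and 8.41, 8.56 and 7.62 in BMM and differed by -4.76 ± 0.22 (adjusted p = 7.14e-11). Vcam1 (-4.59 ± 0.15), an adhesion molecule, Gpnmb (-3.53 ± 0.12), a membrane glycoprotein, and Apoe (-2.49 ± 0.18), a lipid carrier, were lower too. Mertk, a receptor for dying cells, went against the list (3.15 ± 0.22), as did the mannose receptor Mrc1 (1.15 ± 0.30, adjusted p = 0.00584), whose call was lost after cyclic loess (0.68) and quantile normalization (0.77). Csf1r, the M-CSF receptor, had values of 8.41, 8.33 and 8.39 in MPI-2 and 8.40, 8.86 and 8.41 in BMM. The groups overlapped and the difference of -0.18 ± 0.14 did not pass (adjusted p = 0.291), while it did after cyclic loess (-0.59) and quantile normalization (-0.29).

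The subunits of the GM-CSF receptor went both ways. Csf2rb, the signalling chain shared by the receptors for GM-CSF, interleukin-3 and interleukin-5, had values of 10.84, 10.69 and 10.75 in MPI-2 and 8.27, 8.42 and 8.12 in BMM and was higher by 2.49 ± 0.14 (adjusted p = 5.85e-10). Its close copy Csf2rb2 was higher by 1.73 ± 0.15, and the 2 genes can share probes. The GM-CSF-specific chain Csf2ra (-1.0 ± 0.23), the interleukin-3 chain Il3ra (-1.57 ± 0.18) and the G-CSF receptor Csf3r (-3.05 ± 0.15, at background in MPI-2) were lower. These were 2 higher and 3 lower of 8 tested colony-stimulating factor receptors, with a median of -0.19.

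Complement components and Fc receptors were lower in 22 of 26 cases and higher in 2 (median -2.02). Fcgr1, the high-affinity receptor for IgG, differed by -4.31 ± 0.15. Cfb, the factor B of the alternative pathway, stood against the list (3.60 ± 0.16), with Itgb2, the beta chain of complement receptor 3 (1.74 ± 0.14). The list also holds MS4A genes, relatives of an Fc receptor chain, which were at background in MPI-2, with Ms4a7 at -6.45 ± 0.13, Ms4a4a at -5.19 ± 0.13 and Ms4a6c at -6.84 ± 0.17. The adaptor Fyb, which links surface receptors to actin, differed by -6.49 ± 0.18.

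Scavenger receptors and lectins split, with 15 of 38 higher, 11 lower and a median of -0.13, which turned to 0.77 among genes above background, 0.06 after cyclic loess and quantile normalization and 0.03 without BMM LPS replicate 3, and was -0.01 without MPI-2 LPS replicate 2. The fungal receptors Clec4n, or dectin-2, (6.08 ± 0.11) and Clec7a, or dectin-1, (5.01 ± 0.19) were far higher, and Colec12, a scavenger receptor with a collagen stalk, by 3.42 ± 0.13. Lgals9, encoding galectin-9 (-3.85 ± 0.17), and Clec4a1 (-3.41 ± 0.16) were lower.

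MHC class II genes were higher in 5 of 12 cases and lower in 2 (median 0.27). The class II chains H2-Aa (3.51 ± 0.16), H2-Ab1 (1.28 ± 0.16) and H2-Eb1 (1.29 ± 0.18) and the invariant chain Cd74 (1.04 ± 0.21) were among the higher genes. The lower ones were Ctss, the protease that trims the invariant chain (-2.44 ± 0.12), and Ifi30, a lysosomal thiol reductase (-1.12 ± 0.24). Ciita, the master regulator of class II transcription, differed by 0.14 ± 0.15 and did not pass (adjusted p = 0.455).

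Lineage transcription factors had 16 of 48 higher and 19 lower, with a median of -0.09, and the lower count fell to 12 without MPI-2 LPS replicate 3. That median had no stable sign, at 0.04 among genes above background, 0.03 without BMM LPS replicate 1, -0.23 without BMM LPS replicate 3, -0.16 without MPI-2 LPS replicate 2 and 0.0002 without MPI-2 LPS replicate 3. Bhlhe40, a partner of Bhlhe41, was higher by 3.30 ± 0.20 and Myc, a driver of growth, by 1.01 ± 0.18. Batf2, which interferon is known to induce, was lower (-3.25 ± 0.12), with Tcf4 (-2.25 ± 0.14) and the repressor Etv3 (-1.68 ± 0.13). Among 23 fetal, stem cell and Hox genes 3 were higher and 9 lower. The lower count depended on the settings, at 2 after cyclic loess, 4 after quantile normalization and without MPI-2 LPS replicate 3, and 5 among genes above background and without MPI-2 LPS replicate 1. Hmga2, a chromatin protein of growing fetal tissue, was lower in the fetal liver line (-3.0 ± 0.21), while the fetal RNA-binding protein Igf2bp3 was higher (2.11 ± 0.17).

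Lipid genes were the clearest metabolic difference. Of 25 genes of cholesterol synthesis and efflux, 20 were higher and 4 lower, with a median of 2.01. Sqle, squalene epoxidase, had values of 9.14, 9.02 and 9.12 in MPI-2 and 4.59, 5.09 and 4.66 in BMM and was higher by 4.31 ± 0.15 (adjusted p = 3.78e-12), a 19.9-fold difference. The sterol demethylase Cyp51 was higher by 4.23 ± 0.18, the last-step reductase Dhcr7 by 2.91 ± 0.15 and the sterol carrier Stard4 by 3.37 ± 0.15. Ch25h, which makes 25-hydroxycholesterol, a sterol that suppresses cholesterol synthesis and is induced by interferon, had values of 2.72, 2.88 and 2.72 in MPI-2 and 9.95, 10.15 and 9.64 in BMM. It was at background on all MPI-2 arrays (-7.14 ± 0.15, adjusted p = 3.56e-14, at least 93.5-fold). Npc2, a lysosomal cholesterol carrier, was lower by a smaller margin (-2.51 ± 0.15).

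Of 35 genes of lipid uptake, storage and oxidation, 24 were higher and 5 lower (median 1.27). Dgat2, which makes triglycerides, was higher by 5.70 ± 0.18, the desaturase Scd2 by 4.80 ± 0.24, the malic enzyme Me1 by 3.13 ± 0.14 and the fatty acid synthase Fasn by 2.65 ± 0.14. The fatty acid translocase Cd36, a known PPAR gamma target, was lower (-3.77 ± 0.23), as was the secreted phospholipase Pla2g7 (-3.06 ± 0.15, at background in MPI-2).

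Effector enzymes went both ways, with 9 of 26 higher and 7 lower (median -0.04, or -0.01 without MPI-2 LPS replicate 2). Nos2, the inducible nitric oxide synthase, had values of 3.12, 3.20 and 2.80 in MPI-2 and 5.52, 6.01 and 5.78 in BMM, at background in MPI-2, and differed by -2.73 ± 0.15 (adjusted p = 9.10e-10). Ptgs2, the inducible prostaglandin synthase, was high in both cells but lower in MPI-2 (-3.31 ± 0.13). The arginine transporter Slc7a2 was higher by 2.45 ± 0.13, the leukotriene enzyme Alox5 by 2.97 ± 0.15, kynureninase (Kynu) by 2.59 ± 0.14 and the chitinase-like Chil3 by 3.10 ± 0.14. Arginase 1 (Arg1) was at background in both cells (-0.06 ± 0.13, adjusted p = 0.719). Glycolysis genes were higher in 8 of 19 cases and lower in 3 (median 0.38). The lower count was 5 after cyclic loess and quantile normalization, and the median was 0.02 after cyclic loess and 0.03 without BMM LPS replicate 3. Lactate dehydrogenase A (Ldha, 2.37 ± 0.14) and Pgam1 (1.98 ± 0.16) were higher, and the hexokinase Hk3 (-2.05 ± 0.15) and Pfkfb3 (-1.66 ± 0.13), which sets the pace of glycolysis, were lower.

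Genes of cell division were higher in nearly all cases. Of 34 DNA replication genes 33 were higher and 0 lower (median 2.41). Of 33 mitosis genes 32 were higher and 1 lower (median 2.35). On single arrays the median level of the replication list was 6.85, 6.72 and 6.93 in MPI-2 and 4.28, 4.37 and 4.36 in BMM. The helicase subunits Mcm7 (3.44 ± 0.11) and Mcm3 (3.60 ± 0.16), the origin protein Orc6 (2.82 ± 0.11) and the maintenance methyltransferase Dnmt1 (3.20 ± 0.14) led the first list. Ccna2, cyclin A2, had values of 9.23, 8.98 and 9.01 in MPI-2 and 5.10, 5.31 and 5.33 in BMM and was higher by 3.83 ± 0.12 (adjusted p = 1.03e-12). Bub1b (3.59 ± 0.12), a spindle checkpoint kinase, Kif20a (3.62 ± 0.12), a mitotic motor, and Prc1 (3.51 ± 0.13), which bundles spindle microtubules, were higher too. Mki67, the proliferation antigen Ki-67, was higher by 1.84 ± 0.13. Pttg1, securin, was the 1 exception (-0.92 ± 0.13).

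The regulators of entry into the cycle were less uniform, with 11 of 20 higher and 4 lower (median 0.55). Cyclin D2 (Ccnd2, 3.07 ± 0.14), Cdk4 (2.22 ± 0.13) and Cdk2 (2.13 ± 0.18) were higher, and so was the inhibitor Cdkn1b (1.33 ± 0.12). Cyclin D1 (Ccnd1, -0.92 ± 0.23) and the inhibitor Cdkn2b (-0.75 ± 0.14) were lower. Immediate early genes were higher in 17 of 34 cases and lower in 8 (median 0.44), or 13 and 12 after cyclic loess. The median was 0.16 after cyclic loess, 0.19 without BMM LPS replicate 3 and 0.72 without BMM LPS replicate 2. Plk3 (4.23 ± 0.18), Sgk1 (1.57 ± 0.11) and the orphan receptor Nr4a3 (2.17 ± 0.17) were higher, and the regulators of G protein signalling Rgs1 (-4.66 ± 0.21) and Rgs2 (-2.82 ± 0.13) were lower.

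Proteases, matrix and adhesion genes had 10 of 38 higher and 16 lower (median -0.31). Mmp14, a membrane-bound collagenase (-4.97 ± 0.25), the sheddase Adam8 (-4.59 ± 0.14) and the integrin chain Itgav (-3.03 ± 0.14) were lower. Itgax, the CD11c chain found on alveolar macrophages and dendritic cells, was higher (3.57 ± 0.17), as was fibronectin (Fn1, 2.76 ± 0.15). Mmp13, another collagenase, was close between the cells (-0.12 ± 0.13, adjusted p = 0.479), though it passed as lower after cyclic loess (-0.55). Growth factors had 6 of 27 higher and 8 lower (median -0.17), but among genes above background 5 were lower and the median was 0.12. As a share, the higher counts of both these lists lay near the 22.5% of all genes. The receptor Notch1 (-3.29 ± 0.20) and Igf1 (-1.71 ± 0.12) were lower, and epiregulin (Ereg, 4.48 ± 0.13) was higher. Nrg4, a ligand of ErbB4, was higher by 5.32 ± 0.16 and the BMP receptor Bmpr1a by 5.47 ± 0.18.

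Inflammasome and cell death genes were lower in 13 of 23 cases and higher in 4 (median -0.64). Mlkl, the executioner of necroptosis, was at background in MPI-2 (-4.39 ± 0.16, at least 20.1-fold), and its activating kinase Ripk3 differed by -1.71 ± 0.16. Caspase 1 (Casp1), which matures interleukin-1 beta, was lower by a difference of -2.57 ± 0.23, and the flagellin sensor Nlrc4 was higher (1.63 ± 0.17). Lysosomal genes had 12 of 31 higher and 6 lower with a median of 0.26, but 10 and 13 with a median of -0.04 after cyclic loess. Without BMM LPS replicate 3 the median was 0.03. Cathepsin D (Ctsd, 2.06 ± 0.14) and beta-glucuronidase (Gusb, 1.56 ± 0.12) were higher and cathepsin L (Ctsl, -1.98 ± 0.12) lower. Housekeeping genes were themselves not level, with 8 of 13 higher, 2 lower and a median of 0.55, or 0.09 after cyclic loess. The transferrin receptor Tfrc (2.39 ± 0.13) and the ribosomal protein Rplp0 (1.96 ± 0.17) were among the higher.

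**Figure D4:**
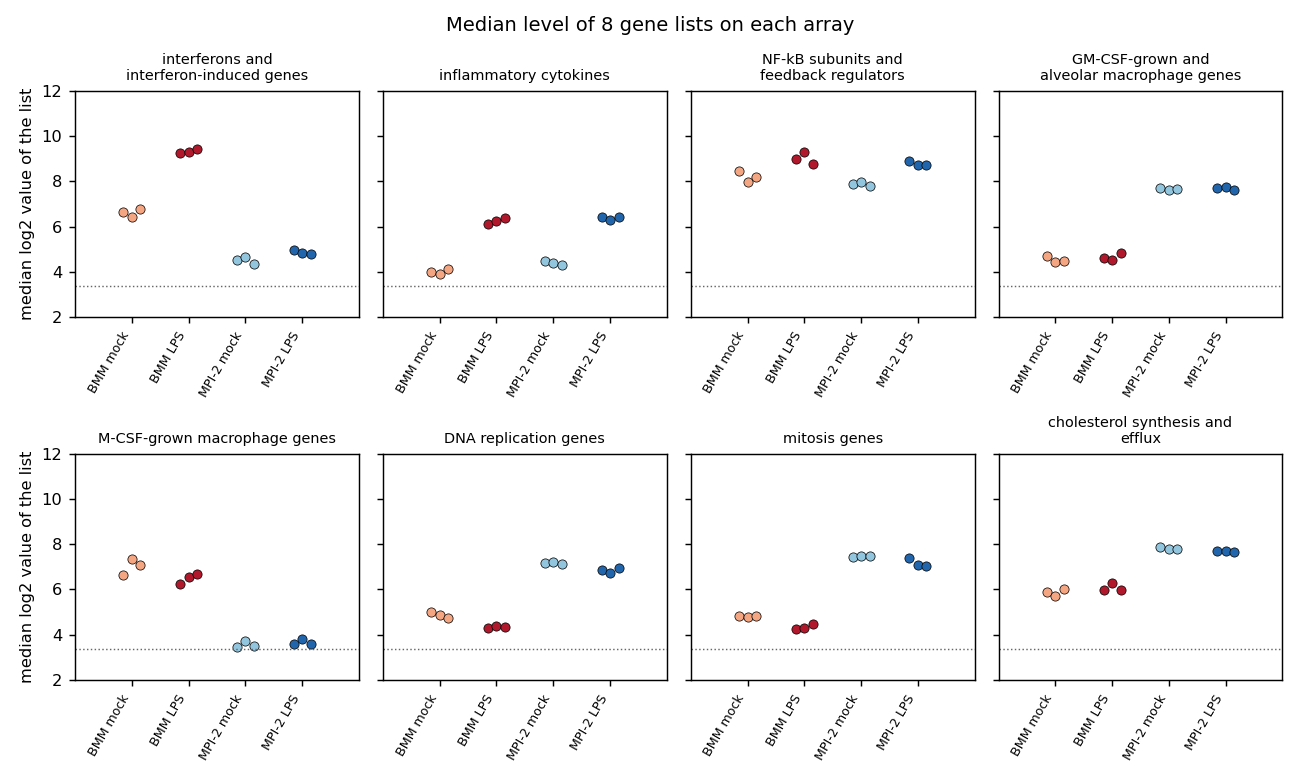
Median log2 value of 8 gene lists on each of the 12 arrays (dots, 3 per group), with background dotted. The interferon list stands at 9.25, 9.31 and 9.44 in BMM after LPS and at 4.95, 4.86 and 4.80 in MPI-2 after LPS, while the cytokine list stands at 6.10, 6.23 and 6.38 and 6.42, 6.30 and 6.40.

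Mock samples of the same cells showed how much of each difference was there without LPS. Between the mock groups 7687 genes (38.6%) passed, 3262 genes were higher in MPI-2 in both conditions, and 2033 lower in both. Across all genes the LPS and mock differences correlated at Pearson r = 0.80 over 19937 genes, which are not independent replicates and share the cell types. The test of the change itself, the LPS difference minus the mock difference in the same fit, passed for 2662 genes (13.4%), 1412 (7.08%) upward and 1250 (6.27%) downward. Of the 3288 genes that passed after LPS but not in mock, 766 passed this test.

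The interferon list was lower already in mock, in 41 of 50 genes with a median of -1.77, and the gap was wider after LPS. The change passed downward for 46 members and upward for 0, with a median of -2.40. For Ifnb1 the mock difference was -0.28 and the change -5.97 ± 0.35 (adjusted p = 2.19e-08). Both cells were at background for Ifnb1 in mock. Ch25h changed downward by a similar size (-6.17 ± 0.21). Downward changes were also found for Tnfsf4 (-5.0 ± 0.23), Cxcl11 (-4.97 ± 0.20), Mx2 (-4.85 ± 0.20), Cmpk2 (-4.73 ± 0.24), Gbp5 (-4.66 ± 0.20) and Ifit3b (-4.63 ± 0.46). Il10 (-3.64 ± 0.35) and Cd40 (-4.28 ± 0.22) changed the same way. Class I genes changed downward in 10 of 16 cases and upward in 0.

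Upward changes were led by Il1bos (5.17 ± 0.24), Il1f6 (5.02 ± 0.26), Csf3 (4.13 ± 0.16) and Ereg (4.12 ± 0.19). Csf3 did not differ past the threshold in mock (-0.09, adjusted p = 0.537), where both cells were at background. Some genes that were close after LPS had been apart in mock. Il1a stood 5.13 higher in MPI-2 mock, and the change was -4.43 ± 0.40 (adjusted p = 2.06e-06). Cxcl10 and Cd14 stood at -3.27 and -2.43 in mock, with changes of 2.79 ± 0.24 (adjusted p = 1.32e-06) and 2.11 ± 0.18 (adjusted p = 1.32e-06). Il6 (-0.32 ± 0.34, adjusted p = 0.691) and Tnf (0.40 ± 0.20, adjusted p = 0.256) showed no change past the threshold.

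For the lists that mark cell identity the mock medians lay near those after LPS, while single members changed both ways. The median of the GM-CSF and alveolar list was 2.29 in mock, with 8 members changed upward and 12 downward. That of the M-CSF list was -1.61, with 10 and 6. For DNA replication it was 2.28, with 6 and 0, and for cholesterol genes 1.86, with 5 and 3. Immediate early genes changed upward in 15 of 34 cases and downward in 3, and lysosomal genes in 15 of 31 and 2.

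Genes that passed in opposite directions in the 2 conditions numbered 217, 114 lower in mock and higher after LPS and 103 the reverse. All 217 passed the test of the change, an outcome that passing with opposite signs nearly fixes in advance. Hgf, hepatocyte growth factor, went from -2.75 in mock to 1.18 after LPS (change 3.93 ± 0.44). The membrane protein Lhfpl2 (-1.27 and 2.59), the orphan receptor Nr4a1 (-2.26 and 1.47), the stress gene Gadd45a (-1.20 and 2.42) and Osm (-0.96 and 2.39) turned the same way. In the other direction stood Rnd1, a small GTPase (0.58 in mock and -3.46 after LPS), the amidase Naaa (2.83 and -0.67), the collagen-modifying enzyme Plod3 (1.96 and -1.34), the interleukin-15 receptor chain Il15ra (0.93 and -2.26) and the RNA polymerase subunit Polr2g (1.13 and -1.88).

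**Figure D5:**
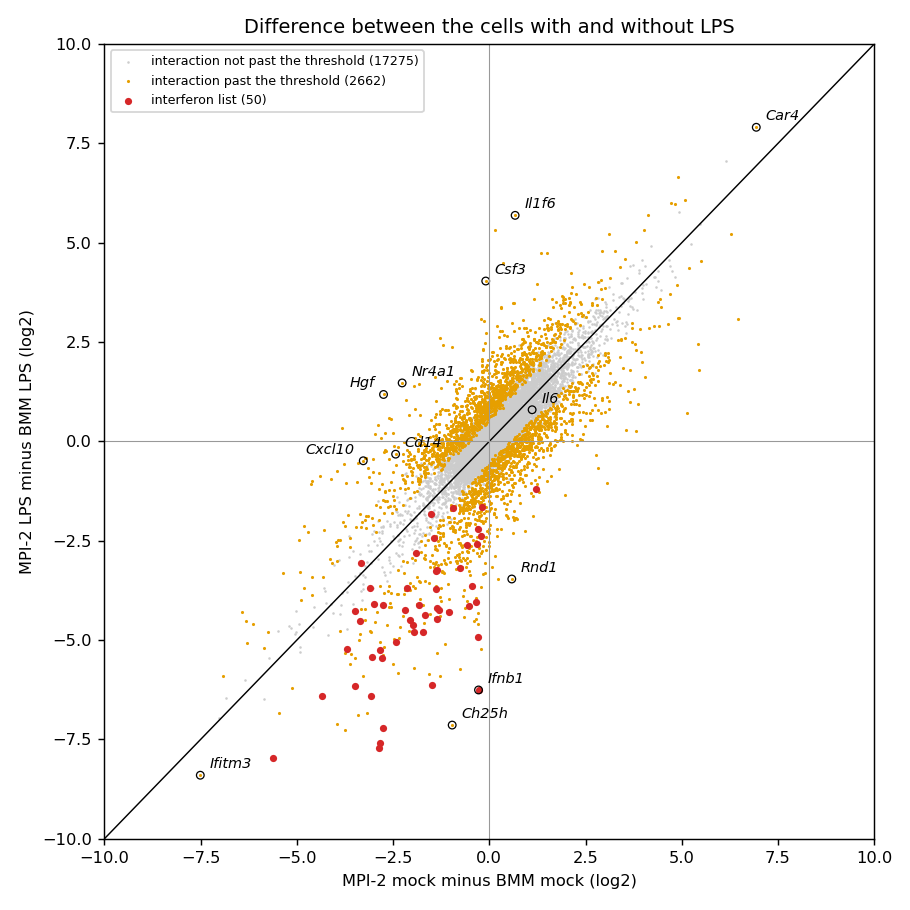
Difference between MPI-2 and BMM in mock (horizontal axis) and after LPS (vertical axis) for all genes, in log2 units; the line marks equal differences, orange dots are the 2662 genes whose difference changed past the threshold, and red dots are the interferon list. Ifnb1 and Ch25h fall far below the line, Il1f6 and Csf3 lie above it, and Hgf and Rnd1 lie in the quadrants of opposite sign.

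Of 84 tested markers of other cells in 9 lists, 42 were at background in both groups. Of 16 neutrophil markers 6 lay above background in MPI-2 and 6 in BMM, with mean levels over the list of 3.67 to 3.71 and 3.41 to 3.58 on the single arrays. The granule genes Mpo, Prtn3, Ctsg, Ngp and Ltf were at background in both, while S100a8 (3.05 ± 0.17), Lcn2 (2.08 ± 0.16) and Mmp8 (2.50 ± 0.19) were higher. Lower were Csf3r, given above, and Ngp (-0.40 ± 0.13), and the median of the list was -0.08. Of 10 dendritic cell markers 4 and 5 lay above background, with mean levels of 3.82 to 3.92 and 3.17 to 3.40. Flt3 and Siglech were at background in both. The endocytic receptors Ly75 (4.13 ± 0.13) and Clec9a (2.16 ± 0.18) and the chemokine receptor Ccr7 (1.08 ± 0.15) were higher. Xcr1 (-0.79 ± 0.17), Cd209a (-0.50 ± 0.15) and Siglech (-0.44 ± 0.16) were lower, and the median was 0.02. Xcr1 and Cd209a were at background in MPI-2 and near it in BMM, with BMM means of 3.71 and 3.41. Hepatocyte markers, relevant to a fetal liver source, were above background in 3 and 4 of 7 cases. Mean levels were 3.73 to 3.88 and 3.54 to 3.80, Afp and Ttr were at background in both cells, and transferrin (Trf) was higher (2.66 ± 0.17). Apoa1 (-0.40 ± 0.14) and Ttr (-0.35 ± 0.13) were lower, and the median was -0.35. The calls of Ngp, Cd209a, Siglech and Ttr were lost after cyclic loess and quantile normalization, and those of Ngp, Cd209a, Siglech, Apoa1 and Ttr without single arrays, MPI-2 LPS replicate 1 in every case. The 8 genes Il10ra, Ngp, Cd209a, Siglech, Xcr1, Ccr7, Apoa1 and Ttr were named after their values were seen. The platelet chemokine Pf4, which macrophages also make, was lower (-4.34 ± 0.25). The part of such cells in the differences was not tested.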

How the data were processed

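Newly made, 4-thiouridine-labelled RNA was measured on 12 arrays in 4 groups of 3, taken from the sample titles. The deposited table gives 1 log2 value per probe set and array, made by the authors with RMA and the package affy, per the submitters' processing notes. No version is given in the sources used here, nor whether all arrays were normalized in 1 run. RMA normalizes the arrays to each other, so every difference is relative to the other genes. The deposited arrays were still not alike in spread. Over all probe sets the interquartile range was 2.95 to 3.04 in MPI-2 LPS arrays and 2.38 to 2.69 in BMM LPS arrays. The small number of arrays limits the precision, and there is no read depth. The platform annotation pairs 21640 of 34760 probe sets with 1 gene and 1321 with several, and 11799 are unnamed here. Symbols were updated through Entrez identifiers to RefSeq, GRCm38.p6, which matched 21553 of these probe sets. For the 954 genes with more than 1 probe set, the one with the highest mean was used.

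Group means were fitted to all 12 arrays with limma 3.58.1 (R 4.3.3), on 8 residual and 6.99 prior degrees of freedom and with no filter, and the fit was tested on simulated data. The LPS difference and its change from mock were tested, each with Benjamini-Hochberg adjustment over 19937 genes. The 42 gene lists, of which 942 of 1035 entries matched a tested gene, the members and the rules were chosen with earlier results of these data known. Lists are described by counts and medians with no test. Named genes are the 15 largest differences each way whose groups did not overlap, clone and predicted names and receptor families left out, and per list up to 4 in its main direction and 2 in the other. A fixed set of macrophage genes, the largest changes from mock and the genes of opposite sign complete them. Promoters come from RefSeq, printed as the 250 bases before the start and counted for motifs over those bases and the 50 after it. The alternatives were other scalings, array weights, a trend and robust fit, probe-set means, a background filter, the LPS arrays alone, the replicate numbers as a block, each array left out in turn, and 100 genes in place of 50 for the promoters.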

Additional observations from a re-analysis of the deposited data

Results flagged for a closer look

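The genes below are those named above whose difference between MPI-2 and BMM changed from mock to LPS past limma's threshold. The value is the LPS difference minus the mock difference in log2 units, over 3 arrays a group. Of interferon, class I and co-stimulatory genes, the difference moved downward for Ifnb1 (-5.97), Mx2 (-4.85), Cmpk2 (-4.73), Gbp5 (-4.66), Mx1 (-4.45), Cd40 (-4.28), Ifit2 (-3.34), Irf7 (-2.66), Cd274 (-2.41), Tap1 (-2.39), Ifit3 (-2.35), Psmb10 (-2.24), Slamf9 (-2.22), Psmb8 (-1.89), Stat5a (-1.79), Tap2 (-1.76), Ifit1 (-1.53) and Slamf7 (-1.09). It moved upward for Il10ra (0.71). Of cytokines, chemokines and their receptors, the difference moved downward for Tnfsf4 (-5.0), Cxcl11 (-4.97), Il1a (-4.43), Cxcl9 (-4.04), Il10 (-3.64), Ccl7 (-3.17), Ccr3 (-2.63), Il15 (-2.61), P2ry13 (-1.96), Inhba (-1.07), Il1rn (-0.84) and Lif (-0.82). Upward movement was found for Il1f6 (5.02), Csf3 (4.13), Osm (3.35), Cxcl10 (2.79), Ccl17 (1.16), Cxcl16 (1.02) and Il12b (0.98). Of Toll-like receptor, signalling, immediate early and cell death genes, the difference moved downward for Mlkl (-3.09), Ripk3 (-2.15), Dusp2 (-2.12), Casp1 (-1.81), Tlr1 (-1.77), Tlr6 (-1.66), Ikbke (-1.26) and Tab2 (-0.78). It moved upward for Ereg (4.12), Nr4a1 (3.73), Cd14 (2.11), Plk3 (2.10), Zfp36l2 (1.98), Zfp36l1 (1.80) and Sgk1 (0.76). Of identity genes, transcription factors and surface receptors, the difference moved downward for Vcam1 (-4.29), Slc7a2 (-2.97), Batf2 (-2.73), Chil3 (-1.81), Csf3r (-1.66), Lgals9 (-1.46), Fcgr1 (-1.38), Ms4a6c (-1.37), Igf2bp3 (-0.97) and Tmem26 (-0.60). Upward movement was found for Bhlhe41 (2.11), H2-Aa (1.79), Itgax (1.64), Apoe (1.44), Csf2rb2 (1.40), Ctsk (1.28), Csf2rb (1.21), Clec7a (1.21), Mertk (1.21), Clec4a1 (1.20), H2-Eb1 (1.16), Clec4n (0.99), Car4 (0.97), Hmga2 (0.96), Itgb2 (0.96), Csf1r (0.77), Colec12 (0.76), Marco (0.76) and Ms4a4a (0.66). Of genes of lipids, effector enzymes and metabolism, the difference moved downward for Ch25h (-6.17), Nos2 (-2.65), Pfkfb3 (-1.58), Npc2 (-1.17) and Alox5 (-0.74). It moved upward for Ctsd (2.10), Gusb (2.03), Dgat2 (1.58), Scd2 (1.54), Tfrc (1.32), Ctsl (1.25) and Ldha (0.79). Of genes of the cell cycle, growth factors and adhesion, the difference moved downward for Ccnd2 (-3.39), Mmp14 (-2.51), Mki67 (-1.63), Pttg1 (-1.13) and Itgav (-0.89). Upward movement was found for Hgf (3.93), Fst (1.74), Cdkn1b (1.69), Mmp8 (1.57), Cdk4 (1.09), Ccna2 (0.92), Dnmt1 (0.89), Orc6 (0.85), Mmp13 (0.83), Mcm3 (0.82), Igf1 (0.72) and Mcm7 (0.64). Of genes in none of these lists, the difference moved downward for Ifit3b (-4.63), Rnd1 (-4.05), Naaa (-3.51), Ifi213 (-3.50), Ifi209 (-3.48), Plod3 (-3.30), Il15ra (-3.20), Polr2g (-3.01) and Ifitm3 (-0.89). It moved upward for Il1bos (5.17), Lhfpl2 (3.86), Gadd45a (3.62), Lcn2 (2.27), Trf (2.20), S100a8 (1.65) and Nrg4 (1.31).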

How the results depend on the processing

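The count of 8800 genes lay between 6994 and 9229 when an LPS array was left out, the higher genes between 4036 and 4547 and the lower between 2910 and 4682. For the change from mock 2662 genes passed in the full set. When any array was left out 2075 to 3025 passed, 1044 to 1704 upward and 995 to 1483 downward. Among genes above background 4425 were higher and 2865 lower, a split of 60.7% higher against 51% in the full set. In the full set 960 of the lower genes and 35 of the higher were at background in both LPS groups. After cyclic loess 7055 passed (5735 of them among the 8800) and after quantile normalization 7120 (6079), with every shared call in the same direction. With the LPS arrays alone 8119 passed (7912 of them among the 8800). With the replicate number as a block 8786 passed, and 2686 for the change. Same-numbered samples of the 2 cells had correlated deviations of 0.029, -0.077 and 0.122, so the numbers were not taken as pairs. Of 216 named genes, 198 kept their direction and side of the threshold under every alternative that gave a value, at most 14. Many were named for a large difference or small p in these same data, which favours such stability. Il10ra turned after cyclic loess (-0.10). In 9 genes (Arg1, Cd209a, Mmp8, Ngp, Siglech, Slamf6, Ttr, Xcr1 and Xist) the background filter gave no value. Of 127 named changes from mock 111 kept theirs under at most 19, with no filtered value for Mmp8, and the others became weaker. They are Alox5, Hmga2, Ifitm3, Inhba, Lif, Marco, Mcm3, Ms4a4a, Slamf7 and Tmem26, with 6 to 11 alternatives each, and Dnmt1, Igf2bp3, Il12b, Itgav, Mcm7 and Tab2, with 1 each. List counts of 1 or 2 also moved: the lower genes of the GM-CSF list were 1 without BMM LPS replicate 1 or 3 or MPI-2 LPS replicate 3 and the higher class I gene 0 where Mr1 lost its call. The cause was not tested.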

Other observations

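Sex-linked genes differed between the cells. The Y-linked genes Uty (-2.24 ± 0.24), Eif2s3y (-2.16 ± 0.23) and Kdm5d (-1.85 ± 0.15) were lower in MPI-2 after LPS, with values of 3.80, 4.02 and 3.46 in MPI-2 and 5.60, 5.96 and 6.46 in BMM for Uty. Their mock differences were -2.99, -2.0 and -2.32. All 3 lay above background in both cells. Xist, which is made from an inactive X chromosome, was at background in both (-0.10 ± 0.12, adjusted p = 0.524), with values of 2.10, 2.01 and 2.07 in MPI-2 and 2.33, 2.16 and 1.98 in BMM. The sex of the source animals is not stated in the labels used here.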
